A study of Sus scrofa with 32 samples.

Results

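The urea cycle genes CPS1, OTC, ASS1, ASL and ARG1 and the aspartate-forming transaminase gene GOT2 were followed in fetal pig liver. They were taken as the probe sets that the array annotation gives exactly 1 of these symbols, which yielded 1 probe set for each of the 6 genes, out of 6765 genes named in this way on the array. All 6 lay above their array's 40th percentile in all 32 arrays, so none was lost to the filter on dim signals.

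The liver turns ammonia, released when amino acids are broken down, into urea. CPS1 and OTC work in the mitochondrial matrix, where they make carbamoyl phosphate and then citrulline, while ASS1, ASL and ARG1 work in the cytosol, where they add the nitrogen of aspartate, release fumarate and arginine, and split arginine into urea and ornithine. GOT2 forms aspartate in the matrix and is part of the malate-aspartate shuttle. The fetal liver also houses developing blood cells, and in humans arginase 1 occurs in red cells and neutrophils as well as in hepatocytes.

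The arrays measured RNA of liver from Pietrain fetuses whose dams (gilts) received either a methyl-enriched gestation diet or a control gestation diet, collected at 35, 63 or 91 days post coitum (dpc). Each diet was represented by 5 arrays at 35 dpc, by 6 at 63 dpc and by 5 at 91 dpc, and precision is limited by these numbers. The series describes 5 to 6 gilts for each stage without saying whether this holds for each diet. The labels name no dam, litter, sex or array batch, so arrays may share a dam. The tests treated arrays as independent and rest only on the spread between these samples. Their p-values may be too small where arrays share a dam.

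All values below are deposited log2 signals, and each difference (later minus earlier age, or methyl minus control diet) is in log2 units. A value after ± on a difference is its standard error, which is not given for every difference. Differences were tested with limma and adjusted by the Benjamini-Hochberg method over 15327 probe sets, with a call at an adjusted p under 0.05. Array medians lay between 3.83 and 4.22. The mean signal of the spike-in control bioC minus that of bioB, the gap, separated the arrays. In 18 arrays the gap was large (1.48 to 1.96) and in 14 it was small (0.24 to 0.41). They are called high-gap and low-gap arrays here. Every group of age and diet held 3 high-gap arrays, beside 3 low-gap arrays at 63 dpc or 2 at the other ages. Between the gap classes, 24.1% of probe sets differed, and among the 6 genes this held for 1, OTC.

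The labelled tissue was checked against marker genes. All 14 hepatocyte markers were measured and lay above the 40th percentile in all arrays. The mean of these markers was 14.49 at 35 dpc, 15.07 at 63 dpc and 15.27 at 91 dpc. The markers did not all rise. Between 35 and 91 dpc, 7 of the 14 were called higher and 4 lower, with a median difference of 0.17. Among all probe sets, 40.8% were higher and 39.1% lower over this span. Of the 7 listed kidney markers only 1 was on the array under a single symbol, and it did not pass the filter. The 2 measured intestine markers of 7 listed averaged 4.87, 4.91 and 5.11 at 35, 63 and 91 dpc. The 3 measured muscle markers of 7 listed averaged 4.72, 4.54 and 4.32. The 8 measured erythroid markers of 21 listed averaged 10.59, 10.11 and 8.36 at 35, 63 and 91 dpc, and each array at 91 dpc (7.76 to 9.05) lay below each array at 63 dpc (9.79 to 10.51). The 6 measured neutrophil markers of 12 listed averaged 7.90, 8.79 and 7.24. In whole liver, fewer cells of a type and less RNA per cell cannot be told apart.

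The age comparisons asked how the transcripts of the cycle changed as the fetal liver developed. The steps of the cycle did not move together. CPS1 rose over both intervals, ASL fell over both, ARG1 was highest at 63 dpc, GOT2 fell in the later interval, ASS1 fell in the earlier interval, and OTC rose across the whole span. Between 35 and 63 dpc, 3 of the 6 genes were higher and 2 lower, where 32.5% of all probe sets were higher and 28.0% lower. Between 63 and 91 dpc, 1 was higher and 3 lower, against 29.5% higher and 29.0% lower among all probe sets. Over the whole span from 35 to 91 dpc, 2 were higher and 2 lower, against 40.8% and 39.1%. The median difference of the 6 genes was 0.18, -0.18 and -0.17 in these comparisons, beside 0.05, -0.03 and 0 for all probe sets.

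**Figure D1:**
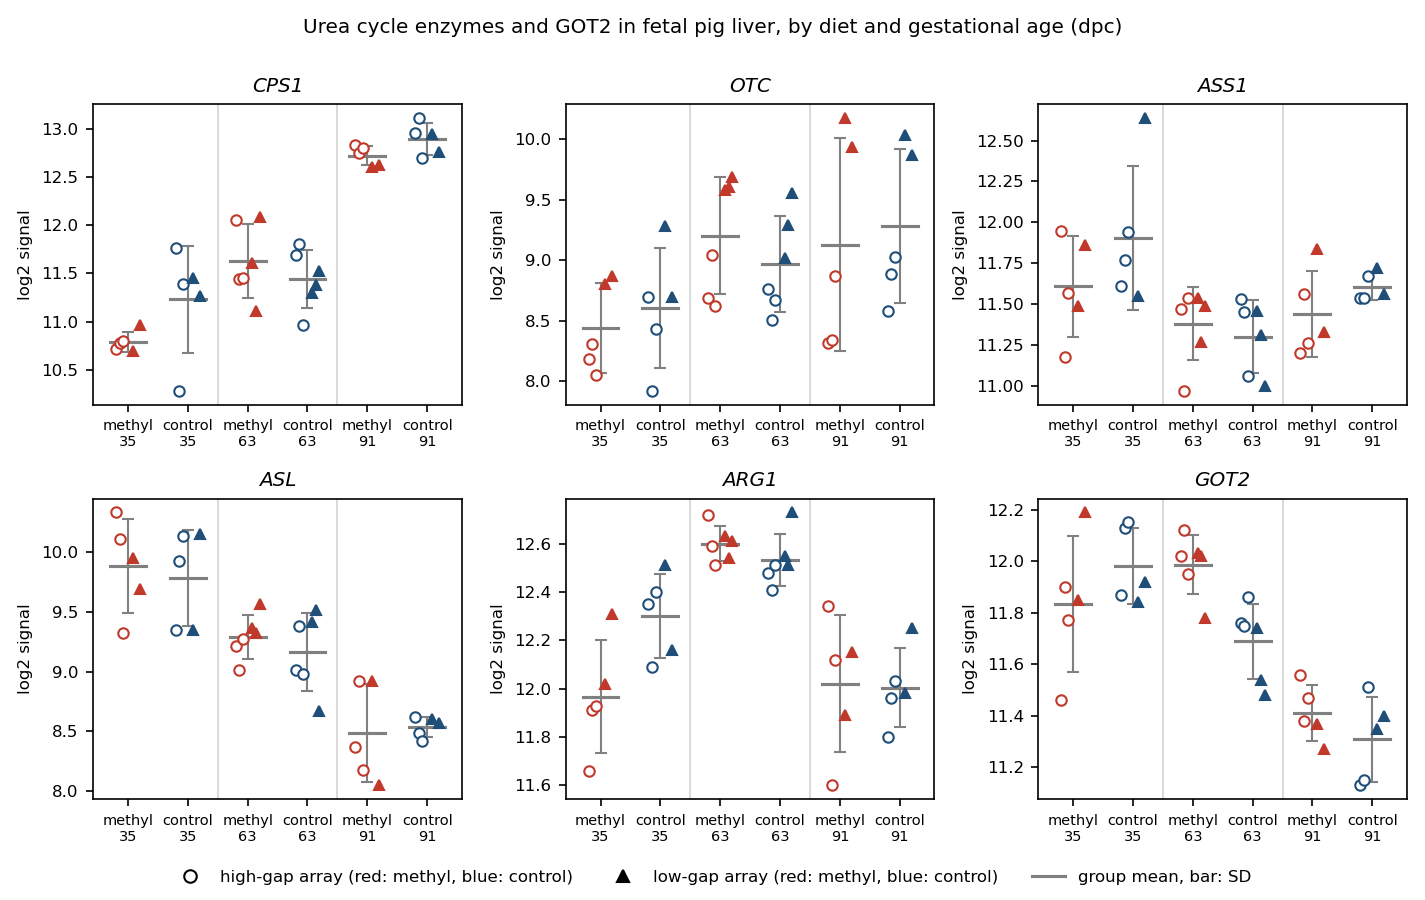
Log2 signal of each gene (vertical axis, a separate scale for each panel) in every array, by diet and gestational age in dpc (horizontal axis). Open circles are high-gap and filled triangles low-gap arrays, red for methyl and blue for control, and grey lines and bars show the group mean and SD (n = 5, 6 and 5 for each diet at 35, 63 and 91 dpc). CPS1 is highest and ASL lowest at 91 dpc, and ARG1 peaks at 63 dpc. For OTC, low-gap arrays lie higher than high-gap arrays of the same group, with overlap at 63 dpc only between diets. The classes nearly meet at 8.70 in the control group at 35 dpc.

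CPS1 encodes carbamoyl phosphate synthetase 1, which catalyses the entry step and sets the pace of the cycle. Its lowest, median and highest values were 10.28, 10.88 and 11.76 at 35 dpc, 10.96, 11.49 and 12.09 at 63 dpc, then 12.61, 12.78 and 13.12 at 91 dpc. The 91 dpc arrays stood apart, as each of the 10 lay above each earlier one, while the values at 63 and 35 dpc overlapped and 3 of 12 arrays at 63 dpc exceeded all arrays at 35 dpc. CPS1 rose by 0.53 ± 0.13 between 35 and 63 dpc (limma adjusted p = 0.000949) and by 1.28 ± 0.13 between 63 and 91 dpc (limma adjusted p = 2.08e-09), a 2.42-fold rise. Over the whole span the rise was 3.49-fold (1.80 ± 0.14, limma adjusted p = 5.27e-13). The whole-span difference was 1.91 among high-gap and 1.64 among low-gap arrays. Age accounted for 83.9% of the variance of CPS1 over the 32 arrays, the largest share among the 6 genes.

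OTC encodes ornithine transcarbamylase, which joins carbamoyl phosphate to ornithine. The lowest, median and highest OTC values were 7.92, 8.56 and 9.28 at 35 dpc, 8.51, 9.03 and 9.69 at 63 dpc, then 8.32, 8.96 and 10.18 at 91 dpc, so that all 3 ages overlapped. The gap class of the array accounted for 56% of its variance, more than the 23.9% of age. OTC was lower in high-gap than in low-gap arrays within groups (difference -0.90 ± 0.10, limma adjusted p = 7.36e-08). This difference was -0.65 at 35 dpc, -0.74 at 63 dpc and -1.34 at 91 dpc.

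The split of OTC was widest at 91 dpc. In high-gap arrays of that age it had 8.32, 8.34 and 8.87 under the methyl diet, against 8.58, 8.89 and 9.03 under the control diet. In low-gap arrays it had 9.94 and 10.18 under the methyl diet, against 9.87 and 10.04 under the control diet. No high-gap array reached a low-gap one at this age, under either diet.

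OTC rose by 0.56 ± 0.23 between 35 and 63 dpc (limma adjusted p = 0.0346), and by 0.47 ± 0.12 with the gap class as a block (adjusted p = 0.00106). The unblocked call was lost when any of 10 single arrays was left out (0.48 to 0.65 over all 32 omissions, adjusted p from 0.0172 to 0.0803). Between 63 and 91 dpc the difference of 0.12 ± 0.23 was not called (limma adjusted p = 0.673), with -0.04 among high-gap and 0.55 among low-gap arrays, and the low-gap arrays alone gave an adjusted p of 0.0137. With group means fitted within the gap classes it was 0.25 (adjusted p = 0.0435). Whether the later change differed between the gap classes was not tested. Over the whole span OTC rose by 0.68 ± 0.24 (limma adjusted p = 0.0106, and 1.18e-05 with the block), with 0.41 among high-gap and 1.09 among low-gap arrays. With the mean level of the erythroid markers as a covariate, the OTC difference was 0.91 ± 0.26 between 35 and 63 dpc (limma adjusted p = 0.00443). It was 1.39 ± 0.60 between 63 and 91 dpc (adjusted p = 0.106) and 2.30 ± 0.75 over the whole span (adjusted p = 0.0153). The erythroid level itself differed between ages, so these estimates depend on a slope fitted within groups. Within groups, OTC and the erythroid mean had r = 0.39 (permutation p = 0.092, adjusted p = 0.327). This r was 0.27 among high-gap and -0.06 among low-gap arrays.

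ASS1 encodes argininosuccinate synthase, which brings the nitrogen of aspartate into the cycle. Its lowest, median and highest values were 11.18, 11.69 and 12.64 at 35 dpc, 10.97, 11.45 and 11.54 at 63 dpc, then 11.20, 11.55 and 11.84 at 91 dpc. The ages overlapped, and the spread was widest at 35 dpc. ASS1 fell by 0.41 ± 0.11 between 35 and 63 dpc (limma adjusted p = 0.00246), with -0.33 among high-gap and -0.54 among low-gap arrays. The later difference of 0.18 ± 0.11 and the whole-span difference of -0.23 ± 0.12 were not called (limma adjusted p = 0.174 and 0.0724). Age accounted for 29.2% of its variance, and 57.9% lay within the groups and gap classes.

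ASL encodes argininosuccinate lyase, which releases arginine and fumarate. Signals had a lowest, median and highest value of 9.32, 9.94 and 10.33 at 35 dpc, 8.67, 9.29 and 9.56 at 63 dpc, then 8.05, 8.53 and 8.92 at 91 dpc. Successive ages overlapped, but no array at 91 dpc reached any at 35 dpc. ASL fell by 0.60 ± 0.13 between 35 and 63 dpc (limma adjusted p = 0.000301) and by 0.71 ± 0.13 between 63 and 91 dpc (limma adjusted p = 4.31e-05). Over the whole span it was 2.49-fold lower (difference -1.32 ± 0.14, limma adjusted p = 7.84e-10), with -1.36 among high-gap and -1.25 among low-gap arrays.

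ARG1 encodes arginase 1, which releases urea. Its lowest, median and highest values were 11.66, 12.13 and 12.51 at 35 dpc, 12.41, 12.54 and 12.73 at 63 dpc, then 11.60, 12 and 12.34 at 91 dpc. Each array at 91 dpc lay below each array at 63 dpc, and 10 of 12 arrays at 63 dpc lay above all arrays at 35 dpc. ARG1 rose by 0.43 ± 0.08 between 35 and 63 dpc (limma adjusted p = 2.28e-05) and fell by 0.55 ± 0.08 between 63 and 91 dpc (limma adjusted p = 5.6e-07). Its levels at 91 and 35 dpc differed by -0.12 ± 0.08, which was not called (limma adjusted p = 0.169, 95% interval -0.29 to 0.04).

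Blood cell markers also changed over these intervals, as did many probe sets. Among all probe sets, 32.5% were higher and 28.0% lower at 63 than at 35 dpc. At 91 against 63 dpc, 29.5% were higher and 29.0% lower. All 6 measured neutrophil markers were higher at 63 than at 35 dpc and all 6 lower at 91 than at 63 dpc, among them ELANE, neutrophil elastase, with differences of 1.0 and -2.15. Of the 8 erythroid markers, 1 was higher and 5 lower at 63 than at 35 dpc, the interval in which ARG1 rose. At 91 against 63 dpc, 1 was higher and 6 lower. HBE1, the embryonic beta-like globin, fell in both intervals (differences -1.56 and -4.08). With the mean erythroid level of each array as a covariate, the difference of ARG1 between 63 and 91 dpc was 0.18 ± 0.17 (limma adjusted p = 0.488). That between 35 and 91 dpc was 0.81 ± 0.21 (adjusted p = 0.00347). Both were of opposite sign to the values without it, of which only the former had been called. The earlier rise was 0.63 ± 0.07 (adjusted p = 9.59e-08). The erythroid levels at 91 dpc did not overlap those at 63 dpc, as given above, or those at 35 dpc (10.18 to 11.02). The covariate estimates that involve 91 dpc thus extend a slope over erythroid levels that the ages do not share. They cannot separate the erythroid level from age. Within groups, ARG1 and the neutrophil mean had r = 0.12 (permutation p = 0.605, adjusted p = 0.812) and rho = 0.12 (permutation p = 0.56, adjusted p = 0.84). This r was 0.08 without the 2 farthest arrays, 0.35 among high-gap and -0.35 among low-gap arrays. The part of neutrophil RNA in the change of ARG1 between ages was not tested.

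Within groups, ARG1 followed the erythroid level. Over the deviations of the 32 arrays from their group means, Pearson's r was 0.70 (permutation p = 0.00015, adjusted p = 0.00495 over 33 relations) and Spearman's rho was 0.69 (permutation p = 0.00036, adjusted p = 0.00594), with 100000 permutations within groups. Without the 2 arrays farthest from the median erythroid deviation, r was 0.61. It was 0.66 among high-gap and 0.75 among low-gap arrays, and 0.62, 0.30 and 0.89 at 35, 63 and 91 dpc. ARG1 also followed the hepatocyte mean (r = 0.57, permutation p = 0.00076, adjusted p = 0.00836, and rho = 0.60, permutation p = 0.00114, adjusted p = 0.0125), with r = 0.51 without the 2 farthest arrays and 0.45 and 0.58 among high-gap and low-gap arrays. For OTC and the hepatocyte mean, r was 0.53 (permutation p = 3e-04, adjusted p = 0.00495) and rho was 0.58 (permutation p = 0.00029, adjusted p = 0.00594), with 0.45 without the 2 farthest arrays, and 0.53 and 0.78 among high-gap and low-gap arrays. By age, r between ARG1 and the hepatocyte mean was 0.75, 0.24 and 0.62 at 35, 63 and 91 dpc. For OTC it was 0.91, 0.29 and 0.61. The other 15 of 18 relations with a marker mean did not pass adjustment by either measure.

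**Figure D2:**
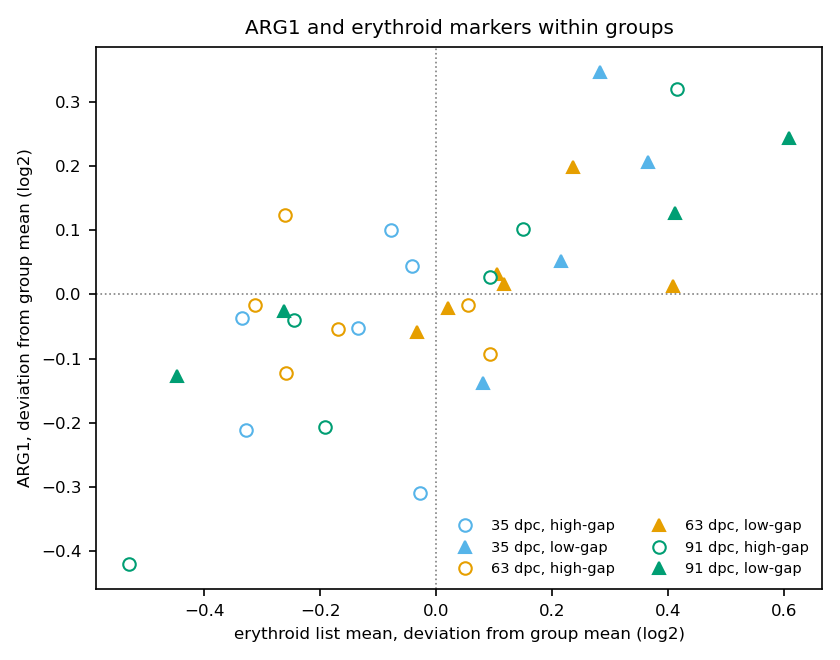
Deviation of ARG1 from its group mean (vertical axis, log2) against the deviation of the mean of 8 erythroid markers from its group mean (horizontal axis, log2). Each point is 1 of 32 arrays, coloured by age, with open circles for high-gap and filled triangles for low-gap arrays. Arrays with a higher erythroid level than their group tend to have higher ARG1 (r = 0.70).

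GOT2 encodes mitochondrial aspartate aminotransferase, which supplies the aspartate that ASS1 uses. Its lowest, median and highest values were 11.46, 11.89 and 12.19 at 35 dpc, 11.48, 11.82 and 12.12 at 63 dpc, then 11.13, 11.37 and 11.56 at 91 dpc. The earlier ages covered the same range, whereas 8 of 10 arrays at 91 dpc lay below all arrays at 63 dpc. GOT2 fell by 0.48 ± 0.07 between 63 and 91 dpc (limma adjusted p = 1.59e-06) and by 0.55 ± 0.08 over the whole span (limma adjusted p = 1.03e-07). Between 35 and 63 dpc the difference was -0.07 ± 0.07 and was not called (limma adjusted p = 0.415, 95% interval -0.22 to 0.08). With the erythroid level as a covariate the later and the whole-span differences were again -0.48 and -0.55, with larger standard errors of 0.20 and 0.25. Neither was then called (limma adjusted p = 0.0996 and 0.0805).

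**Figure D3:**
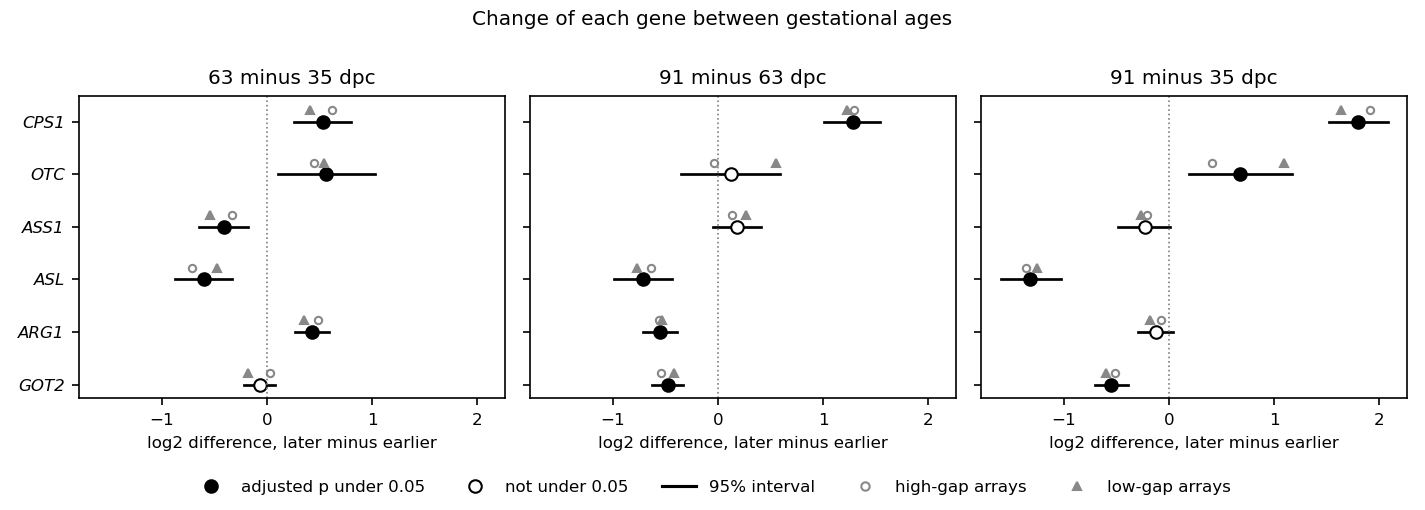
Log2 difference between gestational ages (horizontal axis, later minus earlier, averaged over diets) for each gene (rows). Large symbols are the limma estimates with 95% intervals, filled where the adjusted p is under 0.05, and small grey symbols are the same difference in high-gap (circles) and low-gap arrays (triangles). CPS1 lies right of 0 and ASL left of 0 in all 3 panels, and the gap classes lie far apart for OTC at 91 dpc.

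Among the measured genes listed around the cycle, more were lower than higher at the later ages. Some of them, such as ODC1, use its intermediates rather than supply it. Of 20 listed genes for nitrogen supply and cofactors, 10 were measured, with 1 higher and 6 lower at 63 than at 35 dpc, 1 and 6 at 91 than at 63 dpc, and 2 and 6 at 91 than at 35 dpc. Among all probe sets, 32.5% were higher and 28.0% lower in the earlier interval, and 29.5% and 29.0% in the later one. Over the whole span these shares were 40.8% and 39.1%. The list's median differences were -0.50, -0.21 and -0.67, beside 0.05, -0.03 and 0 for all probe sets. OAT, ornithine aminotransferase, averaged 9.11 ± 0.31, 7.49 ± 0.47 and 6.37 ± 0.43 (SD) at 35, 63 and 91 dpc (difference -1.62 in the earlier interval, limma adjusted p = 5.23e-09, and -1.12 in the later one, adjusted p = 1.81e-06). ODC1, which turns ornithine into putrescine, had differences of -0.66 and -1.31, and ASNS, asparagine synthetase, of -0.48 and -0.27, and each of the 4 was called. GPT, alanine aminotransferase, had -1.10 and -1.12, and GOT1, the cytosolic counterpart of GOT2, had -0.34 and -0.62, again with each called. GLUL, glutamine synthetase, which binds ammonia outside the urea cycle, rose by 1.11 and by 0.36 (limma adjusted p = 4.85e-07 and 0.043). ARG2, the mitochondrial arginase, was not called in any age comparison (differences -0.51 and 0.38, limma adjusted p = 0.091 and 0.22), but the earlier difference was called with the gap class as a block (adjusted p = 0.0418).

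Of 20 listed genes for fumarate, malate and the tricarboxylic acid cycle, 19 were measured, with 3 higher and 12 lower in the earlier interval, 4 and 10 in the later one, and 4 and 14 over the whole span. Higher and lower shares of all probe sets were 32.5% and 28.0%, 29.5% and 29.0%, and 40.8% and 39.1% in these comparisons. The list's medians were -0.34, -0.24 and -0.72. The isocitrate dehydrogenase genes IDH2 (-0.85 and -0.72), IDH3B (-0.81 and -0.55) and IDH3G (-0.96 and -0.92) and the oxoglutarate dehydrogenase subunit gene DLST (-0.91 and -0.81) fell in both intervals. SDHA, a subunit of succinate dehydrogenase, fell in both intervals (differences -0.69 and -0.24), and CS, citrate synthase, fell in both intervals (differences -0.34 and -0.45). The succinyl-CoA ligase subunit gene SUCLG2 rose by 1.08 and by 0.85. FH, fumarase, which takes up the fumarate that ASL releases, had a difference of 0.23 that was not called (limma adjusted p = 0.0777) and then rose by 0.36 (limma adjusted p = 0.0075). GOT2 and 10 of these 19 genes fell in the later interval, whereas in the earlier one 12 of the 19 fell and GOT2 was not called.

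Of 26 listed genes for amino acid breakdown, 11 were measured, with 3 higher and 7 lower in the earlier interval. Counts were 3 and 6 in the later interval and 3 and 7 over the whole span. Higher and lower shares of all probe sets were 32.5% and 28.0%, 29.5% and 29.0%, and 40.8% and 39.1% in these comparisons. Medians of the list were -0.37, -0.36 and -0.52. AMT, of the glycine cleavage system, fell in both intervals (differences -1.25 and -1.32), and ALDH4A1, of proline breakdown, fell in both intervals (differences -0.90 and -0.46). HPD, of tyrosine breakdown, averaged 11.25 ± 0.60, 4.83 ± 2.13 and 3.35 ± 0.43 (SD) at 35, 63 and 91 dpc and was near background in part of the later arrays, so its fall is a lower bound. TAT, which starts tyrosine breakdown, rose by 1.06 and by 0.69, and KYNU, of tryptophan breakdown, rose by 1.43 and by 1.59. AGXT2, a mitochondrial aminotransferase, rose by 0.69 and by 0.26.

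Among regulators of urea cycle transcription, 10 of 17 were measured, with 5 higher and 3 lower in the earlier interval. Counts were 5 and 1 in the later interval and 5 and 3 over the whole span. Higher and lower shares of all probe sets were 32.5% and 28.0%, 29.5% and 29.0%, and 40.8% and 39.1% in these comparisons. Medians of the list were 0.30, 0.17 and 0.36. FOXA2, a liver forkhead factor, rose by 1.1 and by 0.52. NR3C1, the glucocorticoid receptor, rose by 0.56 and by 0.82 from a low signal. PPARGC1A, a coactivator of fasting metabolism, averaged 2.69, 4.12 and 6.50 at 35, 63 and 91 dpc, near background at 35 dpc, so that its rise from that age is a lower bound. HNF4A, a central hepatocyte factor, rose by 0.30 in the earlier interval (limma adjusted p = 0.0038) and had a later difference of -0.12 that was not called (limma adjusted p = 0.237). CEBPA, whose loss in mice lowers urea cycle enzymes, fell in both intervals (differences -0.79 and -0.88), and CEBPD rose by 0.63 in the later interval.

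Of 13 listed amino acid carriers, 5 were measured, with 0 higher and 3 lower in the earlier interval by limma. Counts were 1 and 3 both in the later interval and over the whole span. Higher and lower shares of all probe sets were 32.5% and 28.0%, 29.5% and 29.0%, and 40.8% and 39.1% in these comparisons. Medians of the list were -0.81, -1.0 and -2.27. SLC1A5, a glutamine carrier, fell in both intervals (differences -1.85 and -1.72). SLC7A1, which carries arginine and ornithine, fell in both intervals (differences -0.81 and -1.55). SLC3A2, the shared heavy chain of several carriers, fell in both intervals (differences -1.27 and -1.0). SLC1A1, a glutamate carrier near background before 91 dpc, rose by 1.75 in the later interval, which is a lower bound.

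**Figure D4:**
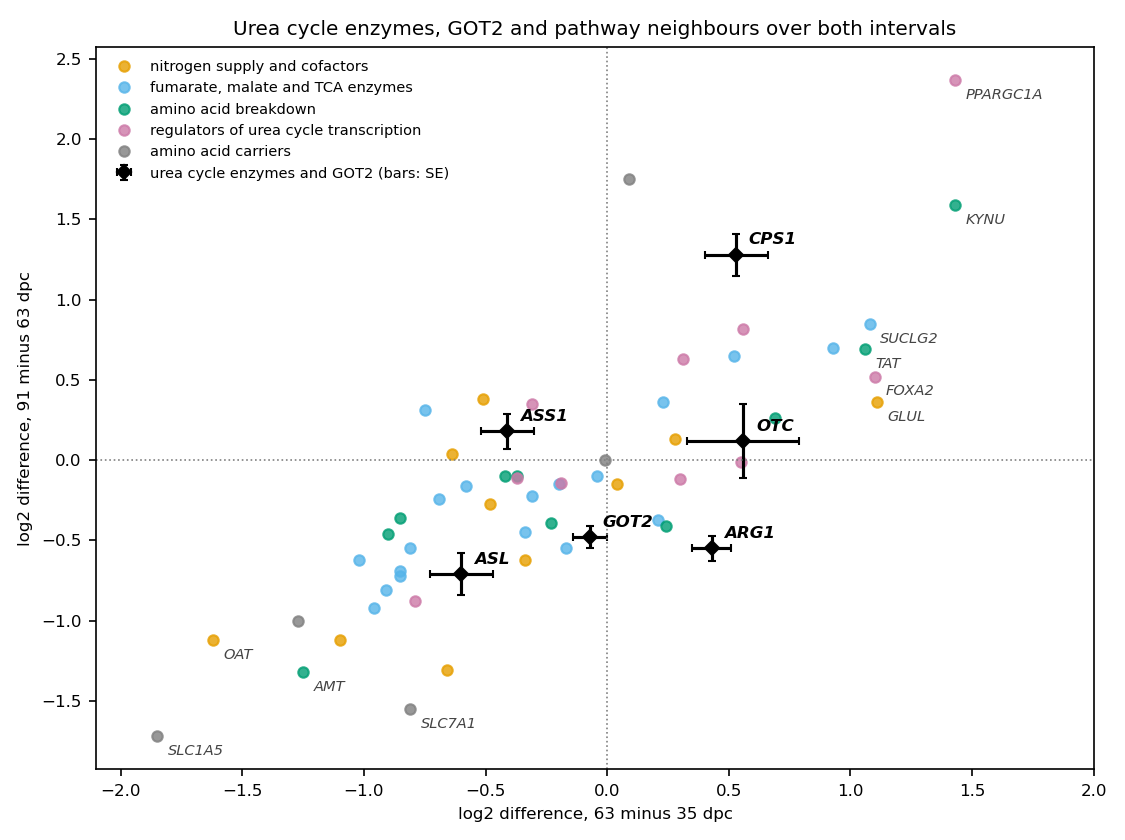
Log2 difference between 35 and 63 dpc (horizontal axis, 63 minus 35) against that between 63 and 91 dpc (vertical axis, 91 minus 63) for the 6 genes (black diamonds with standard errors) and the measured genes of the 5 pathway lists (coloured points, HPD not drawn). Both axes share the 63 dpc arrays, so the axes are not independent. CPS1 lies at the upper right (0.53 and 1.28), ASL at the lower left (-0.60 and -0.71) and ARG1 at the lower right (0.43 and -0.55).

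The diet comparisons asked whether the methyl-enriched gestation diet changed these transcripts in the fetus. No difference between the diets was called for any of the 6 genes at any age. At 35 dpc, limma called 0 of the 6 (2 at an unadjusted p under 0.05), where 0.0391% of all probe sets were called (6 of 15327, and 933 at an unadjusted p under 0.05). At 63 dpc, limma called 0 of the 6 (1 at an unadjusted p under 0.05), where 0% of all probe sets were called (219 at an unadjusted p under 0.05). At 91 dpc it was 0 of the 6 (0 at an unadjusted p under 0.05), where 0.0718% were called (11, and 1000 at an unadjusted p under 0.05). Averaged over ages, limma called 0 of the 6 and 0% of all probe sets (685 at an unadjusted p under 0.05). The counts for the 6 genes were also 0 with the gap class as a block. The 5 pathway lists likewise held 0 called genes in each diet comparison by limma.

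ARG1 had the smallest unadjusted p of the 6 at 35 dpc. It had 11.66, 11.91, 11.93, 12.02 and 12.31 under the methyl diet, against 12.09, 12.16, 12.35, 12.40 and 12.51 under the control diet. Of the 5 methyl arrays, 4 lay below all control arrays. The difference was -0.34 ± 0.11 (95% interval -0.57 to -0.10, limma unadjusted p = 0.0064, adjusted p = 0.627), with -0.45 among high-gap and -0.17 among low-gap arrays. The erythroid mean was 10.52 ± 0.25 under the methyl diet and 10.66 ± 0.25 under the control diet at this age (SD, n = 5 each), and with it as a covariate the ARG1 difference was -0.28 (limma adjusted p = 0.609). At 63 and 91 dpc the ARG1 differences were 0.07 ± 0.10 and 0.02 ± 0.11.

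CPS1 at 35 dpc had 10.69, 10.71, 10.78, 10.80 and 10.96 under the methyl diet, against 10.28, 11.27, 11.39, 11.45 and 11.76 under the control diet. The methyl values were close together (SD 0.11) and the control values spread wider (SD 0.56), with the lowest control array below all methyl arrays and the other 4 above them. The difference was -0.44 ± 0.19 (95% interval -0.84 to -0.05, limma unadjusted p = 0.0292, adjusted p = 0.764), with -0.38 among high-gap and -0.54 among low-gap arrays. Leaving out single arrays gave differences from -0.68 to -0.31 (limma adjusted p from 0.203 to 1), and the value of -0.68 came without control replicate 3, the lowest control array. With all arrays the difference was 0.18 ± 0.18 at 63 dpc and -0.17 ± 0.19 at 91 dpc.

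GOT2 had the 19th smallest unadjusted p of all probe sets at 63 dpc, an age at which no probe set was called. In its lowest, median and highest array it had 11.78, 12.02 and 12.12 under the methyl diet, against 11.48, 11.75 and 11.86 under the control diet. Of the 6 methyl arrays, 5 lay above all control arrays. The difference was 0.30 ± 0.10 (95% interval 0.10 to 0.49, a 1.23-fold higher level, limma unadjusted p = 0.00477, adjusted p = 1), with 0.24 among high-gap and 0.35 among low-gap arrays. It was -0.15 ± 0.11 at 35 dpc, with -0.34 among high-gap and 0.14 among low-gap arrays, and 0.10 ± 0.11 at 91 dpc.

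For OTC, ASS1 and ASL all 9 diet differences had intervals that include 0. The widest were those of OTC, from -0.85 to 0.53 at 35 dpc, from -0.39 to 0.87 at 63 dpc and from -0.84 to 0.54 at 91 dpc. ASS1 had -0.29 ± 0.17 at 35 dpc (interval -0.64 to 0.05), 0.08 ± 0.15 at 63 dpc and -0.17 ± 0.17 at 91 dpc. ASL had 0.10 ± 0.20, 0.13 ± 0.18 and -0.05 ± 0.20 at these ages. Whether the diet differences changed with age was tested with limma's F test, which called 0 of the 6 genes and 0% of all probe sets (660 at an unadjusted p under 0.05). The unadjusted p was 0.0164 for GOT2, 0.0312 for ARG1 and 0.0731 for CPS1, each with an adjusted p of 1.

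**Figure D5:**
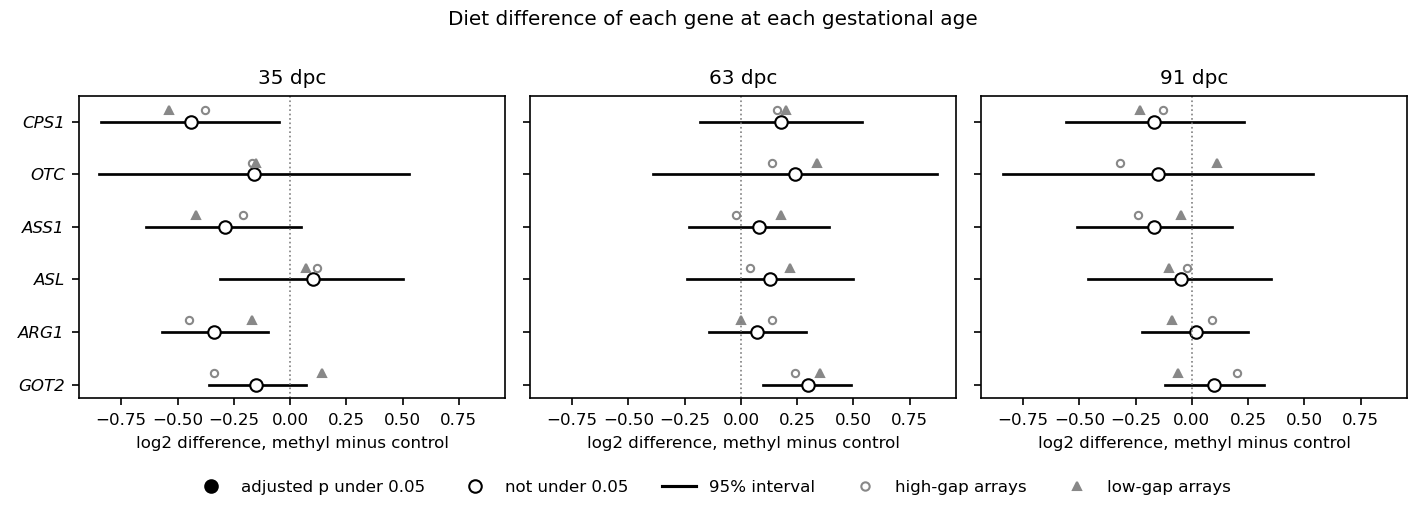
Log2 difference between diets (horizontal axis, methyl minus control) for each gene (rows) at 35, 63 and 91 dpc. Large open symbols are the limma estimates with 95% intervals, none with an adjusted p under 0.05, and small grey symbols are the same difference in high-gap (circles) and low-gap arrays (triangles). The intervals of CPS1 and ARG1 at 35 dpc and of GOT2 at 63 dpc do not reach 0.

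The genes whose signals ran most like each of the 6 were sought among 7619 other probe sets with 1 symbol, by Pearson's correlation over the 32 arrays, which share age, diet and gap class. For CPS1 these were GDF9, ST6GAL1 and DPP4 (r = 0.92 for each), and for ASL they were SLC35B2, FAM207A and TIMM22 (r = 0.95 for each). OTC was most like SF3B1, A2M and LIPC (r = 0.94, 0.93 and 0.92), which were also lower in high-gap than in low-gap arrays, by differences of -1.74, -2.78 and -0.96. Within groups and gap classes, the correlations of OTC with these were 0.75, 0.62 and 0.40. ARG1 was most like DNAJC8, TPM1 and NUSAP1 (r = 0.83 for each), and over deviations from group means it was most like CCNB1, the mitotic cyclin B1 (r = 0.85). GOT2 was most like AIFM1, DCTN4 and STMN1 (r = 0.86, 0.85 and 0.85). ASS1 had the weakest match, with ACOT9, SERPINA3-2 and SLC50A1 (r = 0.77, 0.74 and 0.72).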

How the data were processed

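Each of 32 fetal pig liver RNA samples was hybridised to its own porcine expression array. The values are log2 signals as deposited, 1 per probe set and array. Per the submitters' processing notes, GCOS 1.1.1 is named, without its role, and the normalization is not given in the sources used here. No further log or scaling was applied. Of 24123 probe sets, 124 controls were set aside, and 15327 of the other 23999 were kept, those over the 40th percentile of an array (2.74 to 2.93 across arrays) in 5 or more arrays. Symbols came from the array annotation, in which 10099 probe sets have 1 symbol, 198 several and 13826 none.

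limma 3.58.1 in R 4.3.3 (data.table version 1.17.8) estimated group means for the 6 combinations of age and diet, with an intensity trend and 26 residual degrees of freedom, and contrasts were adjusted over all kept probe sets. The fit was tested on simulated data. Figures were drawn with matplotlib 3.10.9 in Python 3.11.15. Replicate numbers follow the deposited order, so nothing was paired. Gap classes part at a bioC minus bioB difference of 1.2. Pathway genes were read from their brightest probe set, and up to 4 genes by smallest p were named for each list and age comparison. AGXT2, ARG2, FH and SUCLG2 fall outside that rule and were named after their values were seen. The diet differences given for PPARGC1A and ARG2 also fall outside it and were picked from the pathway genes. The members and lists were chosen with earlier results of these data known. Alternatives covered the moderation, filter, quantile normalization, array weights, probe set choice, arrays used, gap class, erythroid covariate and leaving out each array. The gap block with array weights and group means within gap classes were added after seeing the data. Sequences and coordinates were not used here.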

Additional observations from a re-analysis of the deposited data

Results flagged for a closer look

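In 36 combinations of gene and group, Dixon's criterion for a single array far from the others was met in 0, and limma's F test called 0 of the 6 genes for a diet difference that changed with age (2 at an unadjusted p under 0.05).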

How the results depend on the processing

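The number of the 6 genes called was within 1.5 times the reported number under each alternative except 2. Low-gap arrays alone called 2 between 35 and 63 dpc, against 5 in all arrays, with fewer arrays in the fit. Over all probe sets they called 4798, against 9278 in all arrays. With the erythroid covariate 2 were called between 63 and 91 dpc, against 4 without it. Over all probe sets 2410 were called with it in this interval, against 8963 without it. ARG1 turned to 0.18 ± 0.17 (63 to 91 dpc) and 0.81 ± 0.21 (35 to 91 dpc). GOT2 lost both of its calls with the erythroid covariate (limma adjusted p = 0.0996 and 0.0805), while its differences stayed at -0.48 and -0.55. Their standard errors were 0.20 and 0.25 with it, against 0.07 and 0.08 without it. The rise of OTC between 35 and 63 dpc lost its call without a filter (adjusted p = 0.0623), after quantile normalization (0.0584) and with array weights (0.0783), and its whole-span rise lost it with array weights (0.0704). With group means fitted within gap classes, an alternative chosen after seeing the data, OTC was called between 63 and 91 dpc (0.25, adjusted p = 0.0435). The OTC call for 63 against 35 dpc was also lost without methyl replicates 1, 3 or 5 or control replicates 3 or 5 at 35 dpc, or without methyl replicates 1, 3 or 5 or control replicates 4 or 5 at 63 dpc. ASS1 at 91 against 35 dpc became called without methyl replicate 2 at 91 dpc, or methyl replicate 3 or control replicates 1 or 2 at 35 dpc (adjusted p from 0.0276 to 0.209 over all omissions). Leaving out single arrays gave 4 to 5 called genes between 35 and 63 dpc, 4 between 63 and 91 dpc, and 4 to 5 over the whole span. No diet difference of the 6 genes was called under any alternative run. Quantile normalization moved the median of all probe sets over the whole span to -0.15, against 0 as deposited, and turned the direction of none of the 6 genes' age differences. After it, 4309 probe sets were higher and 5198 lower at 63 than at 35 dpc, against 4985 and 4293 as deposited. No paired analysis was possible because the labels give the groups no shared replicate numbers. Signals near background limit HPD, PPARGC1A and SLC1A1, not the 6 genes.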

Other observations

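ASL and ASS1, which act in succession in the cytosol, deviated together from their group means. Over 32 arrays r was 0.57 (permutation p = 0.0059, adjusted p = 0.0487 over 33 relations) and rho was 0.52 (permutation p = 0.0113, adjusted p = 0.0748), so Pearson's r passed adjustment and rho did not. It was 0.49 without the 2 farthest arrays, 0.46 among high-gap and 0.77 among low-gap arrays, and 0.47, 0.64 and 0.76 at 35, 63 and 91 dpc. ASL and ARG1, which act next to each other, deviated in opposite directions, with r = -0.55 (permutation p = 0.0089, adjusted p = 0.0587) and rho = -0.58 (permutation p = 0.00427, adjusted p = 0.0352). This value was -0.58 without the 2 farthest arrays, -0.55 among high-gap and -0.80 among low-gap arrays, and -0.52, -0.47 and -0.68 at 35, 63 and 91 dpc. Of the 15 pairs among the 6 genes, no other pair passed adjustment by either measure. CPS1 and OTC, the matrix steps, had r = 0.06 within groups, 0.38 in either gap class, and 0.62, -0.08 and -0.53 at 35, 63 and 91 dpc.

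Among the pathway genes, PPARGC1A had a methyl minus control difference of 0.90 ± 0.23 at 63 dpc, which limma did not call (adjusted p = 1). ARG2 had 0.88 ± 0.35 at 63 dpc and -1.16 ± 0.39 at 91 dpc (limma adjusted p = 0.454 at 91 dpc), and neither was called.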
